A study of Mus musculus with 12 samples.

Results

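The TGF-beta genes described here are 10 genes: the ligand Tgfb1, the integrin subunit Itgb8, the receptors Tgfbr1 and Tgfbr2, the signal transducers Smad2 and Smad3, the inhibitor Smad7, the co-repressors Ski and Skil, and the matrix gene Tgfbi. They were chosen by mouse symbol from a table of read counts for 27179 genes, and all 10 were found in it. RNA had been sequenced from conventional dendritic cells of the spleen, type 1 (cDC1) and type 2 (cDC2), of female C57/BL6 mice. DC-SCRIPT, the product of the targeted gene Zfp366, is a nuclear zinc finger protein. The 4 groups were cDC1 of mice with the genotype label zfp366-/- (KO), cDC1 of mice labelled zfp366+/+ (WT), cDC2 labelled KO, and cDC2 of WT mice. All groups share the same tissue digestion with collagenase and DNAse, and the labels name no treatment of mice or cells and state neither the age of the mice nor which part of the gene is deleted. Each group had 3 libraries (n = 3 for every mean below), and each library came from a pool of mice. There were 6 pools, and each gave 1 cDC1 and 1 cDC2 library.

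TGF-beta1 is secreted in a latent complex and has to be freed before it acts, which integrins of cells such as dendritic cells can do. The freed ligand joins a type II and a type I receptor, which phosphorylate SMAD2 and SMAD3. These enter the nucleus with SMAD4 and regulate genes there, while SMAD7 blocks the receptor and the proteins SKI and SnoN (from Skil) repress SMAD target genes. In dendritic cells the pathway is known for the formation of Langerhans cells and for inducing CD103, the product of Itgae.

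Total counts ran from 11330503 to 36761685 per library. Levels are given in counts per 1000000 counts (CPM), where the total is that of the tested genes in the library, scaled by TMM, and changes on the log2 scale with a standard error (SE). In cDC1, Zfp366 itself had 48.8, 48.4 and 45.4 CPM in KO libraries numbered 1, 2 and 3, against 152, 89.2 and 67.5 CPM in WT libraries. In cDC2 it had 55.0, 80.6 and 65.1 CPM in libraries labelled KO, against 52.6, 62.4 and 57.4 CPM in WT libraries. The gene was lower in cDC1 KO libraries (-1.12, SE 0.27, adjusted p = 0.0326, edgeR's quasi-likelihood test) and did not pass in cDC2 (0.22, SE 0.27, adjusted p = 1). The count of the targeted gene thus does not bear out the label of the cDC2 KO libraries. These came from the same pools of mice as the cDC1 KO libraries. Counts cover the whole gene, and reads from outside a deleted part would be included. The cDC1 call of Zfp366 ended in 6 of 19 alternatives, namely with only the 6 cDC1 libraries (adjusted p = 0.0863) and without cDC1 KO library 1, 2 or 3, cDC1 WT library 2 or cDC2 library 3 labelled KO (adjusted p from 0.0562 to 0.142). Without cDC1 WT library 1 the change was -0.72. Since the libraries of a group come from different pools of mice, p-values for KO against WT within a subset measure the spread between pools. Where cDC1 is compared with cDC2, libraries share pools, and the main fit treats them as independent. This holds for WT cDC1 against WT cDC2 and for the difference of the KO effects. With the mouse pool as a block, 0 of the genes described here were called in either.

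The subset labels were checked against 10 markers each. The cDC1 markers summed to between 6190 and 6640 CPM in cDC1 KO and between 7270 and 10600 CPM in cDC1 WT libraries, and to between 163 and 374 CPM over the cDC2 libraries. The cDC2 markers summed to between 708 and 728 CPM in cDC1 KO libraries, against between 102 and 117 CPM in cDC1 WT libraries, with 9 of the 10 called higher and none at 0, and to between 3960 and 7640 CPM over the cDC2 libraries. Monocyte markers summed to between 573 and 717 CPM in cDC1 KO libraries, against between 90.5 and 152 CPM in cDC1 WT libraries, with 2 of 7 called higher. Ccr2 made up between 464 and 625 CPM of the KO sums, while Vcan had at most 0.0398 CPM in them. T cell markers summed to between 26.2 and 36.9 CPM in cDC1 KO, against between 1.59 and 5.71 CPM in cDC1 WT libraries, nearly all of it Cd8b1 in the KO libraries, where Cd3e had at most 0.246 CPM. Macrophage markers overlapped in sum, at between 163 and 235 CPM in cDC1 KO and between 129 and 240 CPM in cDC1 WT libraries, with Cd163 called higher, Vcam1 lower and the other 7 of 9 not passing. Cd163 had 27.4, 25.4 and 24.6 CPM in cDC1 KO, against 1.16, 1.38 and 1.56 CPM in cDC1 WT libraries. The part of these markers in the cDC1 results below was not tested. In bulk RNA, more or fewer cells of a type and more or less RNA per cell cannot be told apart.

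Libraries numbered 1 stood apart from those numbered 2 and 3. Over the 9 genes that could be tested, library 1 was the highest of its group for 6 genes in cDC1 KO, 8 in cDC1 WT, 8 in cDC2 labelled KO and 3 in cDC2 WT. It was the lowest for 2, 1, 1 and 5 genes in those groups, so its direction was not the same in cDC2 WT. Tgfb1, Tgfbr2, Smad3, Smad7 and Ski were highest in library 1 of cDC2 labelled KO and lowest in library 1 of cDC2 WT. Tgfbr1 was the reverse. Tgfbi and Smad2 were highest in library 1 of both cDC2 groups, and Skil was highest in that labelled KO and in the middle in WT. Whether the labels of the cDC2 libraries numbered 1 are right was not tested. The share over all genes was not counted. Markers of erythroid cells and platelets summed to between 7.35 and 21.4 CPM in the libraries numbered 1, against between 49.6 and 124 CPM in the others. Neutrophil markers summed to between 0.935 and 5.92 CPM in the libraries numbered 1, against between 5.96 and 80.1 CPM in the others, with Elane at 0 in all 12. In cDC2 libraries 1, 2 and 3, macrophage markers summed to 516, 312 and 298 CPM in those labelled KO and 268, 531 and 473 CPM in WT. Monocyte markers summed to 634, 399 and 404 CPM in cDC2 labelled KO and 545, 576 and 566 CPM in cDC2 WT. The labels do not say whether a number marks a shared day or batch. The part of these markers in the results was not tested. Values with and without the libraries numbered 1 are given for many of the results below, but for none of the correlations over the 12 libraries.

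Itgb8 did not pass the filter on low counts, which left 9 of the 10 genes among 13415 tested. In cDC1, 2 of the 9 rose in KO, Tgfb1 and Tgfbi, and the other 7 did not pass, where 5.32% of all genes tested were called (3.6% higher and 1.72% lower). The median log2 fold change of the 9 was 0.58, against -0.00078 for all genes tested. The number of all genes called in cDC1, 714, was 3052 without cDC1 WT library 1 and between 318 and 384 without any other 1 of the cDC1 libraries. In cDC2 none of the 9 passed edgeR's quasi-likelihood test, in which 0% of all genes were called. There 0 of the 9 genes, and 271 of all genes (2.02%), had an unadjusted p below 0.05, and DESeq2 called 0 as well. Their median log2 fold change was 0.20 in cDC2, against 0.017 for all genes. The effect of KO differed between the subsets for 1 of the 9, Tgfbi, where 1.42% of all genes were called (1.27% higher and 0.149% lower). Between WT cDC1 and WT cDC2, Smad3 was higher and Smad7 lower in cDC1, where 21.2% of all genes were called (10.4% higher and 10.9% lower) and 33% had an unadjusted p below 0.05, as 3 of the 9 genes did. The groups did not overlap for 4 of the 9 genes in cDC1, all higher in KO (Tgfb1, Tgfbi, Tgfbr1 and Smad7), as for 15.5% of all genes tested (26.9% in either direction). They did not overlap for 1 of the 9 in cDC2, Tgfb1, higher in the libraries labelled KO, as for 3.33% of all genes (5.88% in either direction). In WT mice, Smad3 lay higher in cDC1 without overlap, as for 16.5% of all genes, and Tgfb1 and Tgfbr1 lower, as for 16.2% (32.7% in either direction). The comparison of the WT subsets shares its libraries with the KO comparisons, so their values are not independent of each other.

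**Figure D1:**
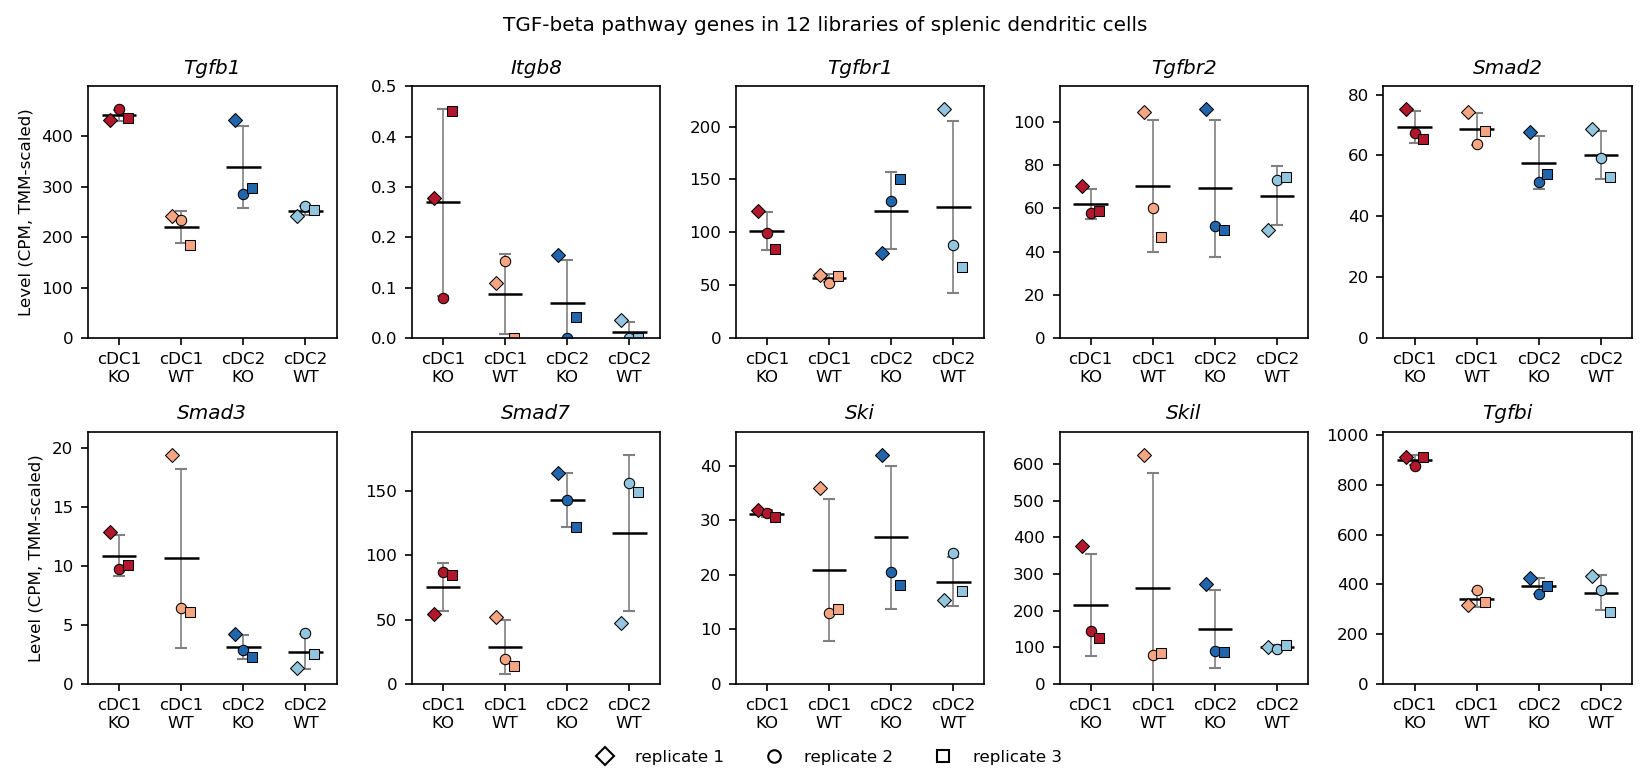
Level of each of the 10 genes (CPM, linear axis from 0, with its own scale per gene) in the 12 libraries, by group. Symbols mark the replicate number, black bars the mean of 3 libraries and grey bars 1 SD, which axis 0 cuts off for Skil in cDC1 WT. The cDC1 KO libraries stand above the cDC1 WT libraries for Tgfb1 and Tgfbi without overlap, and library 1 of cDC1 WT stands above its 2 partners for Smad3, Smad7, Ski and Skil.

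Per length, in CPM per kilobase of the gene (RPKM), the ligand and the matrix gene were the highest of the 10 in all 4 groups. Mean Tgfbi levels were 336 ± 7.95 RPKM in cDC1 KO, 128 ± 11.9 RPKM in cDC1 WT, 147 ± 12.2 RPKM in cDC2 labelled KO and 137 ± 26.8 RPKM in cDC2 WT (SD). Mean Tgfb1 levels were 211 ± 5.43, 105 ± 15.1, 162 ± 39.0 and 121 ± 4.54 RPKM in those groups in the same order. Within cDC2 labelled KO and within cDC2 WT, the means of Tgfb1 and Tgfbi lay within 1 SD of each other. The receptor, SMAD and co-repressor genes followed, with group means from 0.534 RPKM for Smad3 in cDC2 WT to 39.0 RPKM for Skil in cDC1 WT. Itgb8 was last in every group, at no more than 0.0870 ± 0.0600 RPKM. In the middle of the order Skil, Tgfbr1, Tgfbr2 and Smad7 changed places between groups, and their SDs overlapped in most of them, as those of Tgfbr1 (17.9 ± 3.18 RPKM) and Smad7 (16.97 ± 4.19 RPKM) did in cDC1 KO.

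The sequences around the starts of Tgfb1, Tgfbi and Smad3 are shown because the first pair rose in KO cDC1 and Smad3 was higher in WT cDC1 than in WT cDC2. They are RefSeq's sequences of build GRCm38.p6, 300 bases each, with 250 bases before the start, written along the strand of the gene. The windows are chr7:25686752-25687051 (plus strand) for Tgfb1, chr13:56609336-56609635 (plus strand) for Tgfbi and chr9:63757945-63758244 (minus strand) for Smad3. Capitals mark the SMAD box CAGAC, searched on both strands, so that GTCTG is its reverse complement.
Tgfb1: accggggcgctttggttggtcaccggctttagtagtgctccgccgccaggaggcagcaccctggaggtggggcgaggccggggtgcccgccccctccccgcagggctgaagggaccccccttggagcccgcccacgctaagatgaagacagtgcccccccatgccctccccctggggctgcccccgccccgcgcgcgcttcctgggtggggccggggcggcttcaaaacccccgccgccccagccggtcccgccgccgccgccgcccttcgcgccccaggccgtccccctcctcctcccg
Tgfbi: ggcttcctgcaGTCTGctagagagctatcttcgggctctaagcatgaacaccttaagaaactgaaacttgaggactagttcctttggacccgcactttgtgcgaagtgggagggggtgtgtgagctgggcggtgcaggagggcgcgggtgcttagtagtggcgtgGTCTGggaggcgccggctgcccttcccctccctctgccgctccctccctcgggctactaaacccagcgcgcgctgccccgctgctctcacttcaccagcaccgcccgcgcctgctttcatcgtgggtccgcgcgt
Smad3: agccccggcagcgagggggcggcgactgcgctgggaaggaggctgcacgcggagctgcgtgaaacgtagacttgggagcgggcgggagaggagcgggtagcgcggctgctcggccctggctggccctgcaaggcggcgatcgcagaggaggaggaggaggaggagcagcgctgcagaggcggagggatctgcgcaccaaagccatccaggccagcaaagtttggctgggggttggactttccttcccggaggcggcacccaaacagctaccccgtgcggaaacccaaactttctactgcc
The Tgfbi window held 2 matches to the SMAD box, and the windows of Tgfb1 and Smad3 held none. Among the windows read but not shown, those of Tgfbr2 and Itgb8 and the second of Tgfbr1 held 1 match each. The first window of Tgfbr1 and that of Ski held none. Of 32851 start windows of the same length, 49.6% held at least 1 match. No window was read for Smad2, Smad7 or Skil. The AP-1 motif TGANTCA, also searched on both strands, was in 7.81% of all windows and in none of the 8 windows read for 7 of the genes. No match to one motif therefore overlapped a match to the other in these windows. A match in letters is not a bound site.

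The ligand gene Tgfb1 (chromosome 7, bases 25687002 to 25705077, GRCm38.p6) was higher in KO cDC1. It had 433, 454 and 437 CPM in cDC1 KO libraries 1, 2 and 3, against 242, 234 and 184 CPM in cDC1 WT libraries. Every KO library lay above every WT library, and the KO libraries lay close together, at 441 ± 11.4 CPM against 219.8 ± 31.5 CPM in WT. The log2 fold change was 1.01 (SE 0.21, adjusted p = 0.0136, edgeR's quasi-likelihood test), a 2.01-fold higher level. Within the libraries numbered 2 and 3 it was 1.07. The call ended when cDC1 KO library 2 or 3, or cDC1 WT library 2 or 3, was left out, with adjusted p values of 0.0668, 0.0572, 0.0616 and 0.0772 and fold changes of 0.99, 1.02, 1.05 and 0.89.

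In cDC2, Tgfb1 had 433, 286 and 298 CPM in libraries labelled KO, against 242, 261 and 254 CPM in WT libraries. The groups did not overlap, and library 1 labelled KO stood far above its partners. The log2 fold change of 0.43 (SE 0.21, adjusted p = 1) had a 95% interval of -0.023 to 0.87. The KO over WT log2 ratio was 0.84 between the libraries numbered 1, and 0.13 and 0.23 between those numbered 2 and 3. The difference between the effects in cDC1 and cDC2 did not pass (0.58, SE 0.29, adjusted p = 0.606), while it was 0.89 within libraries numbered 2 and 3 (adjusted p = 0.00180). In WT mice the cDC1 libraries all lay below the cDC2 libraries, at 219.8 ± 31.5 CPM in cDC1 and 253 ± 9.52 CPM in cDC2, and the difference of -0.20 (SE 0.21, adjusted p = 0.545) did not pass.

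Tgfbi (chromosome 13, bases 56609586 to 56639359) encodes a secreted matrix protein first found as a gene induced by TGF-beta. In cDC1 it had 910.3, 875 and 914 CPM in KO libraries, against 319, 379 and 330.4 CPM in WT libraries. The 3 KO libraries lay within a narrow band far above the WT libraries, at 899.7 ± 21.3 CPM against 343 ± 31.8 CPM. The log2 fold change was 1.39 (SE 0.20, adjusted p = 0.00143), or 2.63-fold. It was called in all 19 alternatives of the fit, at between 1.31 and 1.47, and the log2 ratios of KO to WT libraries of the same number, which come from different pools, were 1.51, 1.21 and 1.47 for numbers 1, 2 and 3.

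In cDC2, Tgfbi had 427, 362 and 391 CPM in libraries labelled KO, against 432, 379 and 290.0 CPM in WT libraries. The groups overlapped, and the difference was 0.10 (SE 0.20, adjusted p = 1, 95% interval -0.33 to 0.53). The KO effect was larger in cDC1 than in cDC2 by 1.29 (SE 0.28, adjusted p = 0.0446, edgeR's quasi-likelihood test of the interaction). That call held in 7 of 19 alternatives, at between 1.14 and 1.44, with an adjusted p of up to 0.165. It ended with the mouse pool as a block (1.28, adjusted p = 0.165), with DESeq2's size factors (1.25, adjusted p = 0.0524), with no filter (1.29, adjusted p = 0.0885) and without any 1 of 9 libraries, which were all but cDC1 WT library 1, cDC2 library 1 labelled KO and cDC2 WT library 3 (adjusted p from 0.0713 to 0.144 in those 9). In WT mice the subsets overlapped, at 343 ± 31.8 CPM in cDC1 and 367 ± 71.8 CPM in cDC2 (-0.099, SE 0.20, adjusted p = 0.773).

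**Figure D2:**
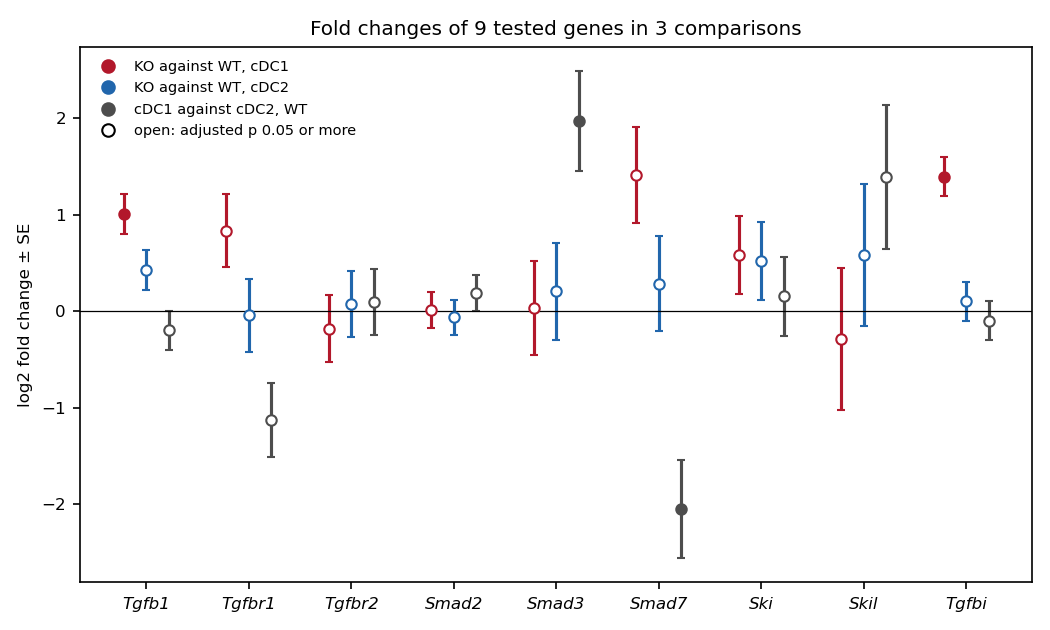
Log2 fold change (vertical axis, with SE bars) of the 9 tested genes for KO against WT in cDC1, for KO against WT in cDC2, and for cDC1 against cDC2 in WT mice. Filled points have an adjusted p below 0.05: Tgfb1 (1.01) and Tgfbi (1.39) in cDC1, and Smad3 (1.97) and Smad7 (-2.05) between the WT subsets.

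Itgb8 (chromosome 12, bases 119162803 to 119238276) encodes the beta chain of the integrin that frees TGF-beta at the surface of dendritic cells. It had 7, 2 and 11 reads in cDC1 KO libraries, 20 together, against 2, 3 and 0 reads in cDC1 WT libraries, 5 together. It had 6, 0 and 1 reads in cDC2 libraries labelled KO, 7 together, against 1, 0 and 0 in cDC2 WT libraries, 1 in all. The gene was thus close to the limit of detection in every library, where a count of 0 allows between 0.0823 and 0.273 CPM (3 reads, counting error only). With the filter removed, the cDC1 difference did not pass (1.55, SE 1.33, adjusted p = 0.669), and no difference could be detected at this depth.

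The receptor genes did not pass in either KO comparison. Tgfbr1 (chromosome 4, bases 47353222 to 47414926) encodes the type I receptor kinase. In cDC1 it had 120.1, 99.1 and 84.3 CPM in KO libraries, against 59.8, 52.0 and 58.5 CPM in WT libraries. All KO libraries lay above all WT libraries. The difference of 0.83 (SE 0.38) had an adjusted p of 0.261, and within libraries numbered 2 and 3 it was 0.71 (adjusted p = 0.00281).

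In cDC2, Tgfbr1 had 80.0, 130.0 and 151 CPM in libraries labelled KO, against 217, 88.2 and 66.7 CPM in WT libraries. Library 1 was the lowest of its KO group and the highest of its WT group, so the groups overlapped. The pooled difference was -0.044 (SE 0.38, adjusted p = 1), and within libraries numbered 2 and 3 it turned to 0.85 (adjusted p = 0.00603). WT cDC1 libraries all lay below WT cDC2 libraries, and the difference of -1.13 (SE 0.38) did not pass (adjusted p = 0.0537). Tgfbr1 was called in 5 of 20 alternatives, among them DESeq2 (-1.10, adjusted p = 0.0249), libraries numbered 2 and 3 only (-0.48, adjusted p = 0.0250) and without cDC2 WT library 3 (-1.42, adjusted p = 0.0179), 2 (-1.34, adjusted p = 0.0469) or cDC2 library 1 labelled KO (-1.13, adjusted p = 0.0458). Without cDC2 WT library 1 it was -0.45 (adjusted p = 0.276).

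Tgfbr2 (chromosome 9, bases 116087695 to 116175363) encodes the type II receptor, which binds the ligand first. It had 70.1, 57.7 and 58.6 CPM in cDC1 KO libraries, against 105, 60.0 and 46.5 CPM in cDC1 WT libraries. It had 106, 51.6 and 49.9 CPM in cDC2 labelled KO, against 50.1, 73.2 and 74.3 CPM in cDC2 WT libraries. Both pairs of groups overlapped, and the differences were -0.18 (SE 0.34, adjusted p = 0.822) in cDC1 and 0.072 (SE 0.34, adjusted p = 1) in cDC2. Within libraries numbered 2 and 3 the cDC2 difference turned to -0.54 (adjusted p = 0.0305). The RPKM ratio of Tgfbr1 to Tgfbr2 was 1.45, 1.45 and 1.22 in cDC1 KO, against 0.483, 0.734 and 1.06 in cDC1 WT libraries. It was 0.638, 2.13 and 2.55 in cDC2 labelled KO, against 3.66, 1.02 and 0.758 in cDC2 WT libraries. The ratio of type I to type II receptor was thus above that of every WT library in the 3 KO libraries of cDC1, and overlapped in cDC2.

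Of the receptor-driven SMADs, Smad2 was the steadiest gene of the set across the 4 groups apart from Tgfbr2, with group means that spanned 0.27 on the log2 scale. Smad2 (chromosome 18, bases 76241090 to 76311748) had 75.3, 67.5 and 65.3 CPM in cDC1 KO libraries, against 74.2, 63.8 and 68.0 CPM in cDC1 WT libraries. It had 67.6, 51.2 and 53.9 CPM in cDC2 labelled KO, against 68.5, 59.1 and 53.0 CPM in cDC2 WT libraries. All pairs of groups overlapped, with differences of 0.015 in cDC1 (95% interval -0.39 to 0.42) and -0.065 in cDC2 (95% interval -0.47 to 0.34). With an offset for gene length the cDC1 value turned to -0.47 (adjusted p = 0.527).

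Smad3 (chromosome 9, bases 63646766 to 63757994) acts beside SMAD2 and, unlike it, binds DNA directly. It had 12.9, 9.71 and 10.03 CPM in cDC1 KO libraries, against 19.4, 6.43 and 6.07 CPM in cDC1 WT libraries. It had 4.25, 2.83 and 2.27 CPM in cDC2 labelled KO, against 1.33, 4.28 and 2.55 CPM in cDC2 WT libraries. Neither KO effect passed (0.031, SE 0.49, adjusted p = 0.982 in cDC1 and 0.20, SE 0.51, adjusted p = 1 in cDC2).

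Between the WT subsets Smad3 was higher in cDC1, at 10.6 ± 7.60 CPM against 2.72 ± 1.48 CPM in cDC2, with no overlap. The log2 fold change was 1.97 (SE 0.52, adjusted p = 0.0159, edgeR's quasi-likelihood test). The call rested in part on cDC1 WT library 1: without it the difference was 1.21 (adjusted p = 0.0641), and within libraries numbered 2 and 3 it was 0.85 (adjusted p = 0.0387). It also ended with the mouse pool as a block (1.85, adjusted p = 0.0890) and with a fit of the 6 WT libraries alone (1.95, adjusted p = 0.0860). The RPKM ratio of Smad2 to Smad3 was 3.26, 3.87 and 3.63 in cDC1 KO and 2.13, 5.53 and 6.24 in cDC1 WT libraries. It was 8.85, 10.1 and 13.2 in cDC2 labelled KO and 28.6, 7.69 and 11.6 in cDC2 WT libraries, so Smad2 exceeded Smad3 in every library, and more in every cDC2 library than in any cDC1 library.

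Smad7 (chromosome 18, bases 75367365 to 75395935), the inhibitor that TGF-beta itself induces, had the widest spread of group means of the 10 genes, 2.54 on the log2 scale. In cDC1 it had 53.9, 87.2 and 85.0 CPM in KO libraries, against 52.3, 19.0 and 13.8 CPM in WT libraries. The groups did not overlap, but by a margin of 53.9 against 52.3 CPM between their libraries numbered 1. The difference of 1.41 (SE 0.50) did not pass over all libraries (adjusted p = 0.144). The log2 ratio was 0.044 between the libraries numbered 1, against 2.20 and 2.63 between those numbered 2 and 3. Within these, with 2 libraries per group and 47.8% of all genes called, the difference was 2.37 (adjusted p = 6.32e-07). Without cDC1 WT library 1 alone it was 2.21 (adjusted p = 0.00742).

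In cDC2, Smad7 had 164, 143 and 122 CPM in libraries labelled KO, against 47.5, 156 and 149 CPM in WT libraries. The groups overlapped, with WT library 1 far below its partners (0.29, SE 0.49, adjusted p = 1). Between the WT subsets Smad7 was lower in cDC1, at 28.3 ± 20.9 CPM against 117 ± 60.6 CPM in cDC2 (-2.05, SE 0.51, adjusted p = 0.0119, edgeR's quasi-likelihood test). The libraries numbered 1 of the WT subsets were alike, with a log2 ratio of 0.14, while those numbered 2 and 3 differed by -3.04 and -3.43. The call ended without cDC1 WT library 2 (-1.82, adjusted p = 0.0563), with the mouse pool as a block (-2.21, adjusted p = 0.0802) and with a fit of the 6 WT libraries alone (-2.06, adjusted p = 0.0663), and within libraries numbered 2 and 3 the difference was -3.20 (adjusted p = 1.65e-08). The RPKM ratio of Smad7 to Smad2, an inhibitor to transducer ratio, was 1.47, 2.66 and 2.68 in cDC1 KO, against 1.45, 0.612 and 0.417 in cDC1 WT libraries. It was 4.99, 5.75 and 4.67 in cDC2 labelled KO, against 1.43, 5.43 and 5.78 in cDC2 WT libraries.

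**Figure D3:**
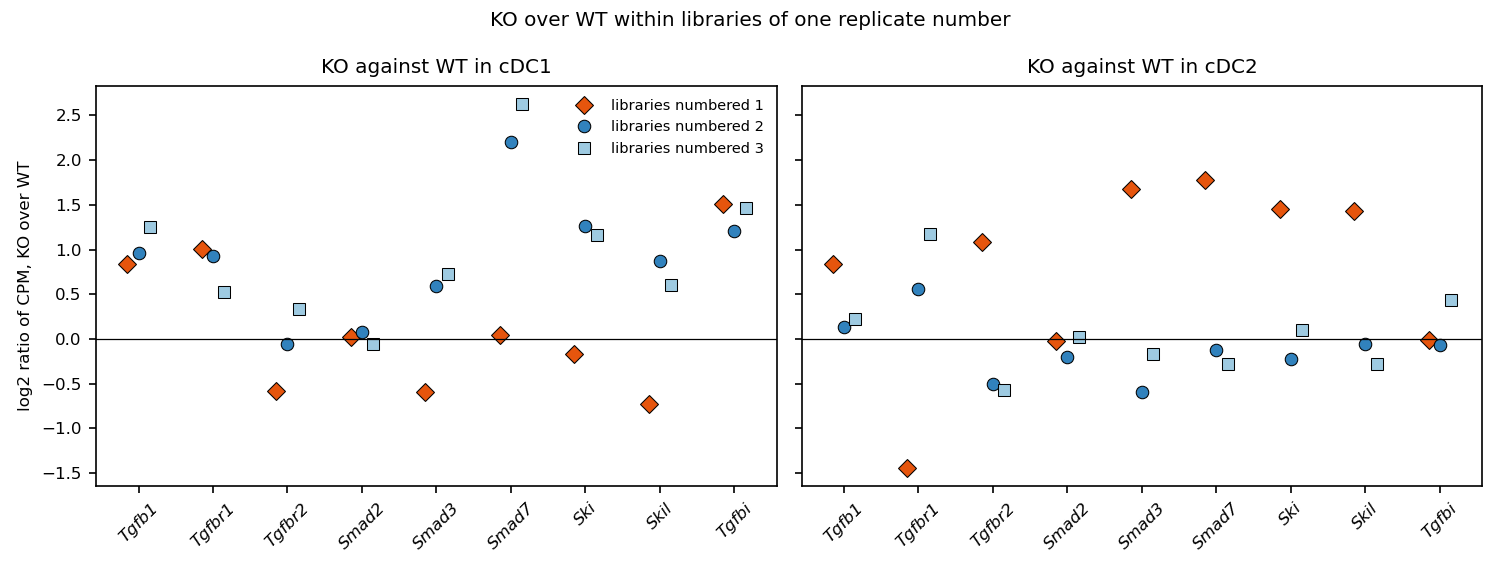
Log2 ratio of CPM (KO over WT) between libraries that share a replicate number but not a mouse pool, for the 9 tested genes, in cDC1 (left) and cDC2 (right). The 3 ratios lie together for Tgfbi in cDC1 (1.51, 1.21 and 1.47). For Tgfb1, Tgfbr2, Smad3, Smad7, Ski and Skil the ratio for number 1 lies below the other ratios in cDC1 and above them in cDC2. For Tgfb1 in cDC1 the gap is small (0.84 against 0.96 and 1.25).

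Neither co-repressor gene passed in a KO comparison, and library 1 stood apart from its partners in several groups. Ski (chromosome 4, bases 155154075 to 155222535) had 31.8, 31.3 and 30.5 CPM in cDC1 KO libraries, against 35.8, 13.1 and 13.6 CPM in cDC1 WT libraries. The KO libraries were nearly equal, and the WT libraries numbered 2 and 3 lay below them while number 1 lay above. It had 42.0, 20.5 and 18.1 CPM in cDC2 labelled KO, against 15.4, 23.9 and 16.9 CPM in cDC2 WT libraries. The differences were 0.58 in cDC1 (SE 0.41, adjusted p = 0.483) and 0.52 in cDC2 (SE 0.41, adjusted p = 1). Within libraries numbered 2 and 3 they were 1.19 in cDC1 (adjusted p = 0.000283) and -0.095 in cDC2 (adjusted p = 0.794). Without cDC1 WT library 1, Ski was called in cDC1 (1.23, adjusted p = 0.0265).

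Skil (chromosome 3, bases 31095058 to 31122923) encodes SnoN. It had 377, 143 and 126 CPM in cDC1 KO libraries, against 625, 78.3 and 82.9 CPM in cDC1 WT libraries. It had 272, 90.3 and 86.2 CPM in cDC2 labelled KO, against 101, 93.9 and 105 CPM in cDC2 WT libraries. Library 1 was 2.80 times the mean of libraries 2 and 3 in cDC1 KO, 7.76 times in cDC1 WT, 3.08 times in cDC2 labelled KO and 1.01 times in cDC2 WT. The difference in cDC1 was -0.28 (SE 0.74, adjusted p = 0.877) over all libraries and 0.72 within those numbered 2 and 3 (adjusted p = 0.000402). In cDC2 it was 0.58 (SE 0.74, adjusted p = 1) and -0.17 (adjusted p = 0.417). Without cDC1 WT library 1 the cDC1 difference turned to 1.42. The RPKM ratio of Ski to Skil was 0.104, 0.269 and 0.298 in cDC1 KO and 0.0705, 0.205 and 0.202 in cDC1 WT libraries, so that Skil was the higher of the pair per length in each of them.

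With only the libraries numbered 2 and 3, which leaves 2 per group, 6 of the 9 genes were called higher in KO cDC1, namely Tgfb1, Tgfbi, Tgfbr1, Smad7, Ski and Skil, where 47.8% of 13461 genes were called. In cDC2 the count was 2, Tgfbr1 higher and Tgfbr2 lower, where 7.72% of all genes were called. The difference between these effects was called for 6 of the 9 (Tgfb1, Tgfbi, Tgfbr2, Smad7, Ski and Skil), where 38.3% of all genes were called. For WT cDC1 against WT cDC2 the count was 5, Smad3 higher and Smad7, Ski, Tgfbr1 and Tgfbr2 lower in cDC1, where 47.5% of all genes were called. Without cDC1 WT library 1 alone, 4 genes were called in KO cDC1 (Tgfb1, Tgfbi, Smad7 and Ski), where 22.3% of all genes were called. Between the WT subsets, 1 of the 9 was then called, Smad7 lower in cDC1, against 2 with that library, where 23.8% of all genes were called.

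Across the 12 libraries, described by Pearson's r of log2 CPM values, Tgfb1 was closest to Tgfbi (r = 0.82) and then to Ski (0.755), and Ski was closest to Skil (0.783). Skil and Tgfbr2 had an r of 0.763, and Smad2 and Smad7 one of -0.518. The libraries of a pool share their mice and those of a number may share a shift, so these values describe this set only. Among 8628 candidate genes, the levels most like those of Smad7 over the 12 libraries were Klf4 (0.993), Irf2bp2 (0.985) and Tmem131l (0.984). Klf4, for example, had 297, 372 and 325 CPM in cDC1 KO, against 226, 124 and 91.7 CPM in cDC1 WT libraries. Most like Smad3 were Atp8a1 (0.991), Cblb (0.98) and Vezf1 (0.98), and most like Tgfbi were Efnb1 (0.978), Sv2b (0.975) and Ptms (0.975). Sv2b was low outside KO cDC1, with 48.1, 40.9 and 43.1 CPM in the KO cDC1 libraries, at most 0.165 CPM in cDC1 WT and at most 1.75 CPM in the cDC2 libraries, while Ptms was high in every library, at 999.9, 929 and 997 CPM in KO cDC1 against 487, 544 and 478 CPM in WT cDC1.

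Beyond the 10 genes, 6 lists of 79 other genes of the pathway were examined, 67 of which could be tested. In KO cDC1, 5 of the 67 rose, 3 fell and 59 did not pass, where 5.32% of all genes tested were called, and the median log2 fold change of the 67 was 0.31. In cDC2, 0 of the 67 passed edgeR's quasi-likelihood test, 2 had an unadjusted p below 0.05 and DESeq2 called 0, where 0% of all genes were called and 2.02% had an unadjusted p below 0.05. Without cDC1 WT library 1 the count in cDC1 was 27 (23 higher and 4 lower), where 22.3% of all genes were called. It was 44 within libraries numbered 2 and 3 (37 higher and 7 lower), where 47.8% of all genes were called, and 5 without cDC1 WT library 2 (2 higher and 3 lower). DESeq2 called 12 of the 67 (9 higher and 3 lower).

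Genes of latency and activation moved both ways in KO cDC1. Of 12 tested genes of that list, 2 rose, 1 fell and 9 did not pass, where 3.6% of all genes were called higher and 1.72% lower. Itgb3, a beta chain that pairs with the alpha v integrin chain, had 9.75, 10.9 and 10.7 CPM in cDC1 KO, against 0.880, 1.07 and 0.925 CPM in cDC1 WT libraries (3.44, SE 0.37, adjusted p = 0.000162). Mmp14, a membrane metalloprotease, had 10.8, 5.33 and 7.37 CPM in cDC1 KO, against 2.31, 0.255 and 0.289 CPM in cDC1 WT libraries (3.04, SE 0.72, adjusted p = 0.0287). Ltbp2, of the family of latent TGF-beta binding proteins, had 1.71, 1.82 and 1.60 CPM in cDC1 KO, against 24.2, 13.1 and 9.66 CPM in cDC1 WT libraries (-3.19, SE 0.37, adjusted p = 0.000276). The groups were far apart for Itgb3 and Ltbp2. For Mmp14 the lowest KO library had 5.33 CPM and the highest WT library 2.31 CPM, and the WT libraries ran from 0.255 to 2.31 CPM. Within libraries numbered 2 and 3 the change of Ltbp2 was -2.76. The call of Mmp14 ended in 6 of 19 alternatives, 5 of them without 1 of the cDC1 libraries other than WT library 1 (adjusted p up to 0.116), and without cDC1 WT library 1 its change was 4.83 (adjusted p = 0.000608).

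The KO effect differed between the subsets for 2 of the 67 listed genes, Itgb3 and Ltbp2, by edgeR's quasi-likelihood test, where 1.42% of all genes were called. DESeq2 called 6 of the 67 for this difference (also Mmp14, Tgif2, Cd207 and Id3), and 4 were called with the mouse pool as a block. The count was also 6 without cDC1 WT library 1. Itgb3 had 60.3, 49.2 and 61.7 CPM in cDC2 labelled KO, against 68.8, 27.9 and 27.8 CPM in cDC2 WT libraries. Its effect was larger in cDC1 by 2.98 (SE 0.48, adjusted p = 0.00657, edgeR's quasi-likelihood test), and by 2.41 within libraries numbered 2 and 3. Ltbp2 had 2.66, 3.14 and 2.22 CPM in cDC2 labelled KO, against 1.93, 2.37 and 2.92 CPM in cDC2 WT libraries, and its effect was lower in cDC1 by -3.36 (SE 0.50, adjusted p = 0.00419). With the mouse pool as a block the adjusted p of Ltbp2 was 0.0589.

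Of 17 tested genes that TGF-beta is known to induce, 2 rose, 2 fell and 13 did not pass in KO cDC1, with a median log2 fold change of 0.64, where 3.6% of all genes were called higher and 1.72% lower. DESeq2 called 7 of them, 5 higher (Klf10, Id3, Axl, Cdkn1a and Junb) and 2 lower (Itgae and Cd207). Klf10, an early TGF-beta response gene, had 41.8, 31.6 and 31.4 CPM in cDC1 KO, against 16.9, 8.47 and 11.9 CPM in cDC1 WT libraries (1.49, SE 0.27, adjusted p = 0.00605). Id3, an inhibitor of helix-loop-helix factors, had 1.71, 2.17 and 2.17 CPM in cDC1 KO, against 0.385, 0.612 and 0.925 CPM in cDC1 WT libraries (1.65, SE 0.37, adjusted p = 0.0214). Itgae, which encodes CD103, had 10.1, 11.2 and 11.1 CPM in cDC1 KO, against 131, 208 and 189 CPM in cDC1 WT libraries (-4.02, SE 0.66, adjusted p = 0.00296). Cd207, which encodes langerin, had 1.63, 1.11 and 2.42 CPM in cDC1 KO, against 41.5, 165 and 184 CPM in cDC1 WT libraries (-6.24, SE 0.70, adjusted p = 0.000209). Itgae was also among the cDC1 markers, and the only 1 of the 10 that was called. The call of Id3 ended without cDC1 KO library 2 or 3 or cDC1 WT library 2 and with only the 6 cDC1 libraries (adjusted p up to 0.106). Within libraries numbered 2 and 3 the cDC1 change of Cd207 was -6.65.

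Of 13 tested negative regulators and ubiquitin ligases, Tgif2, a homeobox co-repressor of SMAD proteins, rose in KO cDC1 and 12 did not pass. It had 38.1, 22.7 and 19.7 CPM in cDC1 KO, against 10.7, 3.67 and 3.47 CPM in cDC1 WT libraries (2.17, SE 0.49, adjusted p = 0.0214). Its call ended without cDC1 KO library 1, without cDC1 WT library 2 or 3, and with only the 6 cDC1 libraries (adjusted p up to 0.111). Within libraries numbered 2 and 3 its change was 2.54, and without cDC1 WT library 1 it was 2.91. Among 11 other receptors and co-receptors, 11 other SMADs and partners, and 3 other ligands that could be tested, 0 passed edgeR's quasi-likelihood test in KO cDC1. In these lists 2, 1 and 1 genes had an unadjusted p below 0.05, and DESeq2 called 0, 0 and 1. In WT mice 13 of the 67 were higher and 14 lower in cDC1, and 40 did not pass, where 10.4% of all genes were called higher and 10.9% lower.

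**Figure D4:**
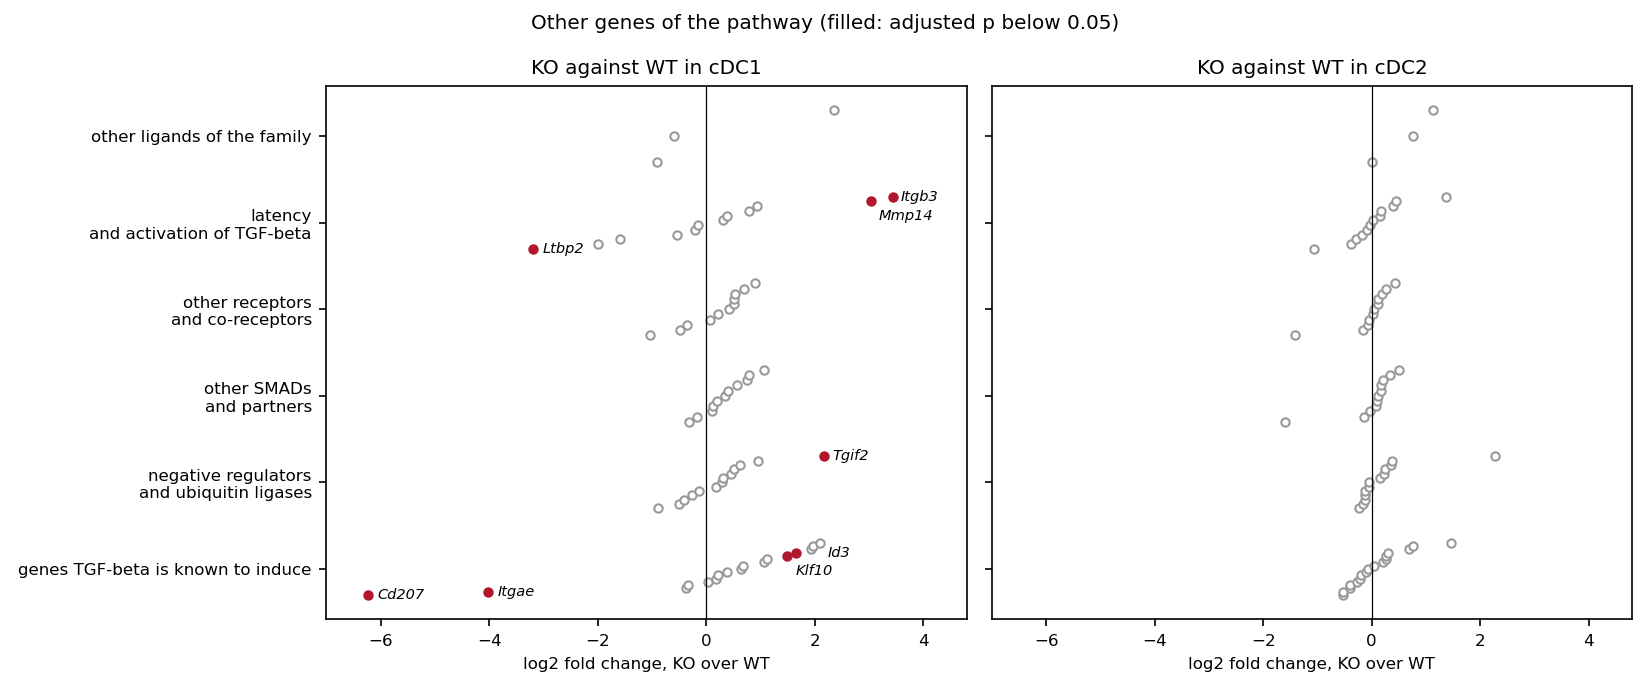
Log2 fold change, KO over WT, of the 67 tested genes of the 6 lists in cDC1 (left) and cDC2 (right), on 1 scale, with each list's genes spread by rank. Filled points have an adjusted p below 0.05, which 8 genes reached in cDC1, from Cd207 (-6.24) to Itgb3 (3.44), and none in cDC2.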

How the data were processed

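The authors deposited whole-number read counts per gene, made with featureCounts on GRCm38/mm10 per the submitters' processing notes, which give no version. The aligner is not given in the sources used here. PolyA RNA was sequenced after TruSeq library preparation, per the labels' protocols. The table held 27179 genes by Entrez identifier with a gene length, also deposited by the authors, and 25275 matched a RefSeq symbol, while 2.23% of reads lay in genes without one. The 12 files of single samples held the same counts as the table of the whole series.

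CPM divides a gene's counts, also those of genes that were not tested, by the library's total over tested genes, scaled by TMM, and RPKM divides them by the deposited gene length. Genes with low counts were removed with filterByExpr, which left 13415. The main test was edgeR's quasi-likelihood test (edgeR 4.0.16, limma 3.58.1, R 4.3.3) on 4 group means over all 12 libraries, with Benjamini-Hochberg adjustment over all genes tested and a threshold of 0.05. The SE is the absolute log2 fold change over the root of F. Compared were KO and WT within each subset, the effects of KO between the subsets, and cDC1 with cDC2 in WT mice. Alternatives were DESeq2's size factors, DESeq2 (1.42.0), no filter, the replicate number as a block, the mouse pool as a block, the libraries numbered 2 and 3 only, the 6 libraries compared only, an offset for gene length, and leaving out each library. Limits from a count of 0 take 3 reads and cover counting error only. Depth differed 3.24-fold between libraries.

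The labels give the mouse pool of each library, which pairs cDC1 with cDC2 by animals. Deviations of cDC1 and cDC2 libraries from the same pool correlated at between 0.142 and 0.271 in KO and between -0.259 and -0.112 in WT pools. Libraries that share a number came from different pools in KO and WT.

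The 10 genes and the pathway and marker lists were chosen with earlier results of these data known. Named were all 10 genes, the pathway genes called in a KO comparison (up to 4 per list and comparison, by smallest p), and, for the 3 genes with the widest range of group means, the 3 genes with the highest Pearson's r over 12 libraries among those averaging at least 3 on the log2 CPM scale (pseudocount 0.5), leaving out predicted genes. Zfp366 and the marker genes Ccr2, Vcan, Cd3e, Cd8b1, Cd163, Vcam1 and Elane were named as checks. Axl, Cdkn1a, Junb, Cd163 and Vcam1 were named after their values were seen.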

Additional observations from a re-analysis of the deposited data

Results flagged for a closer look

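For 3 genes named above the effect of KO differed between cDC1 and cDC2 by the interaction test (edgeR's quasi-likelihood test). Tgfbi rose in cDC1 (1.39) and was near its WT level in cDC2 (0.10), a difference of 1.29 (SE 0.28, adjusted p = 0.0446), and this call held in 7 of 19 alternatives. Itgb3 rose in cDC1 (3.44), and the difference from its effect in cDC2 was 2.98 (SE 0.48, adjusted p = 0.00657). It was called in all 19 alternatives. Ltbp2 fell in cDC1 (-3.19), with a difference of -3.36 (SE 0.50, adjusted p = 0.00419), which ended only with the mouse pool as a block (adjusted p = 0.0589) among the 19 alternatives. The count of Zfp366, which covers the whole gene, was not lower in the cDC2 libraries labelled KO and so does not bear out their label. These libraries came from the same pools of mice as the cDC1 KO libraries.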

How the results depend on the processing

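Tgfbi in KO cDC1 was called under every one of 19 alternatives, and Tgfb1 in 15. The libraries numbered 1 moved the counts most. With libraries numbered 2 and 3 only, 6 of the 9 genes and 6438 of all genes were called in cDC1, 2 and 1039 in cDC2, 6 and 5157 for the difference, and 5 and 6391 between the WT subsets. DESeq2 called 1318 genes in cDC1 (57.4% of them higher, against 483 of 714) and 480 for the difference. For the difference, 0 of the 9 genes passed with DESeq2's size factors, with no filter and with the mouse pool as a block (116 of all genes), and the length offset gave 314 genes. Between the WT subsets, 0 of the 9 passed with only the 6 WT libraries (1537 of all genes) and with the pool as a block, where by unadjusted p 3 of the 9 passed in the fit reported above. Leaving out 1 library gave 1 to 4 of the 9 genes and 318 to 3052 of all genes in cDC1, where the count was highest without cDC1 WT library 1, 0 to 0 in cDC2, 0 to 1 and 110 to 501 for the difference (501 without cDC1 WT library 1, 110 to 118 without cDC1 KO library 1, 2 or 3, cDC1 WT library 2, or cDC2 library 2 or 3 labelled KO), and 1 to 3 and 2049 to 3266 between the WT subsets.

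These log2 fold changes turned their sign; none of them had been called. The cause was not tested. With libraries numbered 2 and 3 only, in cDC1 they were 0.10 for Tgfbr2, -0.012 for Smad2 and 0.72 for Skil. In cDC2 they were 0.85 for Tgfbr1, -0.54 for Tgfbr2, -0.45 for Smad3, -0.20 for Smad7, -0.095 for Ski and -0.17 for Skil. For the difference they were -0.14 for Tgfbr1, 0.64 for Tgfbr2, 1.09 for Smad3 and 0.89 for Skil, and between the WT subsets 0.093 for Tgfbi, -0.46 for Tgfbr2, -0.62 for Ski and -0.29 for Skil. In cDC1, DESeq2's size factors gave -0.011 for Smad2 and -0.0019 for Smad3, DESeq2 gave -0.011 and -0.0020, and the 6 cDC1 libraries alone gave -0.0020 for Smad2. The length offset gave -0.47 for Smad2 and -0.049 for Smad3 in cDC1, -0.048 for Tgfbr2 in cDC2, -0.11 for Smad2 for the difference, and -0.094 for Tgfbr2 and -0.092 for Ski between the WT subsets.

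Leaving out 1 library gave ranges that crossed 0. In cDC1 they were -0.41 to 0.23 for Tgfbr2, -0.045 to 0.079 for Smad2, -0.25 to 0.80 for Smad3 and -0.96 to 1.42 for Skil. In cDC2 they were -0.042 to 0.24 for Tgfbi, -0.34 to 0.64 for Tgfbr1, -0.37 to 0.26 for Tgfbr2, -0.20 to 0.041 for Smad2, -0.14 to 0.71 for Smad3, -0.089 to 0.54 for Smad7 and -0.18 to 0.86 for Skil. For the difference they were -0.48 to 0.20 for Tgfbr2, -0.023 to 0.21 for Smad2, -0.70 to 0.59 for Smad3, -0.19 to 0.71 for Ski and -1.54 to 0.84 for Skil. Between the WT subsets they were -0.24 to 0.036 for Tgfbi, -0.30 to 0.33 for Tgfbr2, -0.49 to 0.41 for Ski and -0.31 to 1.83 for Skil.

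Deviations of same-numbered KO and WT libraries correlated at between -0.128 and 0.123 over all genes tested. A value over all genes can miss a shift in part of them, and the main fit did not use the replicate number. With it as a block, 2 of the 9 genes and 733 of all genes were called in cDC1, 0 and 0 in cDC2, 1 and 193 for the difference, and 2 and 3002 between the WT subsets, and 13 of the 67 listed pathway genes in cDC1, against 8 without it. Under that block Skil turned to 0.11 in cDC1, Tgfbr1 to 0.086 and Tgfbr2 to -0.047 in cDC2, Smad3 to 0.033 for the difference, and Tgfbr2 to -0.019 and Ski to -0.0018 between the WT subsets. Depth limits Itgb8, with at most 11 reads per library, and Smad3 in cDC2.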
